A study of Mus musculus with 12 samples.

Results

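The difference between the effect of resveratrol on a rice diet and its effect on a starch diet was measured in the liver as (DJ526 minus DJ) minus (RS minus Ctrl), with 3 arrays in each of the 4 groups. Ctrl mice were fed a normal formula diet with corn starch and sucrose as its carbohydrate, and RS mice the same diet with resveratrol. In the diets of DJ and DJ526 mice, rice took the place of corn starch and sucrose, Dongjin rice for DJ and the resveratrol-enriched rice DJ526 for the other. All 12 mice were female C57BL/6N mice, killed after 6 months on the diet. Each liver RNA sample was hybridised to 1 one-colour Agilent array. The plant of DJ526 differs from Dongjin rice by a stilbene synthase gene transferred from peanut, so that the effect on rice is that of a plant with the gene against a plant without it and not that of resveratrol added to rice. The study's methods say that cages of 10 mice were assigned to the groups, and the labels do not tie the arrays to cages. With the 20 mice that the methods give for a group, at least 2 of its 3 array mice came from the same cage.

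The members were the 27285 of 39429 probes that were well above background on all 12 arrays, which stood for 15582 of the 20886 named genes on the array. A further 859 probes were well above background on 11 arrays and stayed outside. Values are log2 ratios of the processed signal to the 75th percentile of its own array, so that 0 is that percentile, and every effect and difference below is on this log2 scale. A difference above 0 means that DJ526 in place of Dongjin rice raised the signal more, or lowered it less, than resveratrol did on starch and sucrose. A probe is said to have turned where the 3 RS values lay all above or all below the 3 Ctrl values, and the 3 DJ526 values lay all on the opposite side of the 3 DJ values.

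Resveratrol is a stilbene polyphenol that grape and peanut plants make from a phenylpropanoid precursor by stilbene synthase. In mammals it is absorbed in the gut and conjugated in gut and liver to sulfates and glucuronides. It is best known for its reported actions on sirtuins, AMP-activated protein kinase and cyclic nucleotide phosphodiesterases. Starch and sucrose reach the liver as glucose and fructose, whereas rice supplies glucose almost alone together with rice protein and minor components, and the liver adjusts its carbohydrate, lipid and clock genes to such changes of diet.

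The arrays were placed 4 to a slide, and slide and group went together in large part. All Ctrl arrays and DJ replicate 1 were on slide 1. Slide 2 carried the other 2 arrays of DJ and the first 2 of RS, and slide 3 carried the 3 of DJ526 and RS replicate 3. The weights of the arrays in the difference of effects sum to 0.667 on slide 1, -1.33 on slide 2 and 0.667 on slide 3, so that anything that set slide 2 apart entered the difference. With the slide as a block, the difference reduces to DJ526 against RS replicate 3 on slide 3, minus DJ replicate 1 against Ctrl on slide 1. No slide held all 4 groups, and no value of the difference could be had within 1 slide. The value with the slide as a block is therefore given beside the differences of the genes that turned and of the list members at the unadjusted level, and where it differs slide and group cannot be told apart. A supplementary sample table lists the array identifiers of RS and DJ the other way round, and the labels were followed. The difference itself stays the same under that exchange, but each effect alone does not, and 173 probes would then turn, 76 of them among the 183 described below. Hepatocyte markers were high on every array (albumin, Alb, 9.01 to 9.41). In a bulk tissue, fewer cells of a type and less RNA per cell cannot be told apart.

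No probe passed an adjusted p of 0.05 for the difference of effects (limma with Benjamini-Hochberg adjustment over 39429 probes, smallest adjusted p = 0.109). At an unadjusted p under 0.05 there were 2403 probes in limma (6.09%), 1082 above 0 and 1321 below, and an ordinary linear model gave 0 and 2443. From the deposited normalized table the split was 1657 above and 985 below, and with normexp background correction of the median pixel signal 837 above and 2707 below, so that the balance of directions moved with the scaling of the deposited table and with the change of background correction and pixel signal together. Among the 27285 members 1805 probes, 6.62%, were at that unadjusted level. With DJ replicate 1 left out, 19 probes passed, 13 above 0 and 6 below. Every DJ array is then on slide 2, so that DJ and slide cannot be told apart in that count. With Ctrl replicate 1 or with DJ526 replicate 3 left out, 1 probe passed, and with any other array left out none did. For the effect on rice alone, 4 probes passed (0.0101%). With the slide as a block 17 passed, all below 0, but 16 of them were well above background on at most 2 arrays and the remaining one was the olfactory receptor gene Olfr209. Simulated data had the same 4 groups of 3 arrays, with independent noise in each probe and no slide effect. In them limma recovered 28% of differences of 1 log2 unit, 76% of differences of 2 and 94% of differences of 3. It also made 12 false calls. These shares do not cover data in which slide and group go together.

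Over the 27285 probes, the SD of the effect was 0.253 on starch and sucrose, 0.290 on rice, and 0.357 for their difference. The effects had opposite signs in 44.2% of the probes and a correlation across probes of 0.142, a description only, since probes are not replicates and both effects come from the same 3 slides. With the slide as a block these became 31.3% and 0.622. In that fit both effects hold the same term, the RS arrays of slide 2 minus its DJ arrays. A higher correlation and fewer opposite signs are thus partly built in, and are no sign that the effects agree. In all, 183 probes turned, 0.671% of the members, of which 110 (0.403%) lay higher on starch and sucrose and lower on rice, and 73 (0.268%) the other way. Each effect alone separated more, with RS above Ctrl without overlap in 6.9% of probes and below in 4.83%, and DJ526 above DJ in 12.2% and below in 7.34%. By comparison 333 probes lay higher without overlap in both effects (1.22%) and 109 lower (0.399%). Groups of 3 arrays can lie apart without any effect. Whether the 183 exceed what the separate shares would give was not tested, so that the count is no evidence of a turned response. The probes that turned stood for 107 genes when each gene was read by its brightest probe (0.687% of 15582), 65 in the first direction (0.417%) and 42 in the second (0.27%). The direction among probes that turned followed the scaling too, with 39 against 80 after centring on the array median, 89 against 98 after quantile normalization and 65 against 154 in the deposited table. Normexp on the median pixel, which changes the background correction and the pixel signal together, gave 146 against 49.

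**Figure D1:**
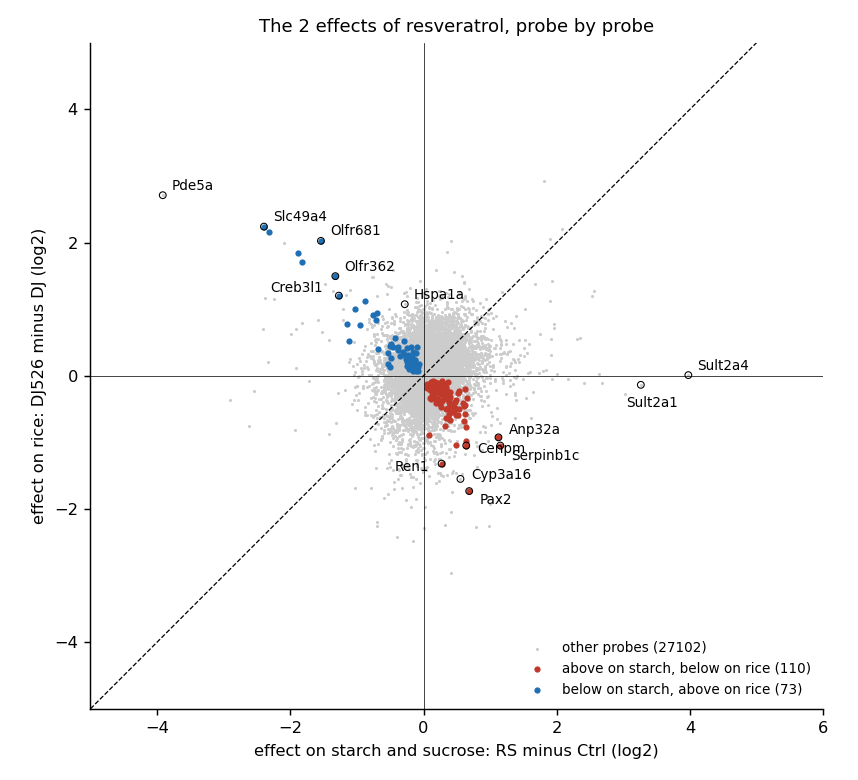
Effect of resveratrol on starch and sucrose (RS minus Ctrl, x axis, log2) against the effect of DJ526 in place of Dongjin rice (DJ526 minus DJ, y axis, log2) for 27285 probes. The line of equal effects is dashed. Red points are the 110 probes higher on starch and lower on rice, blue points the 73 lower on starch and higher on rice, and circled points are named genes, of which Pde5a lies at -3.91 and 2.71 and Sult2a4 at 3.98 and 0.01.

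The genes that turned were chosen for that pattern, so that their values are a description, and none passed the adjusted threshold with all 12 arrays. Among the named genes higher on starch and sucrose and lower on rice, Dffa had the smallest p, though a probe without a symbol had a smaller one. Dffa encodes the inhibitor that holds the caspase-activated DNase inactive. Dffa was -2.50, -2.31 and -2.13 in Ctrl, -1.71, -1.73 and -2.05 in RS, -2.05, -1.81 and -1.72 in DJ and -2.96, -2.86 and -2.90 in DJ526. The RS values lay above every Ctrl value, and the DJ526 values lay below all other 9 arrays. The effect was 0.48 on starch and -1.05 on rice, a difference of -1.53 (standard error 0.196, 95% interval -1.96 to -1.10, adjusted p = 0.109 in limma), and -1.11 with the slide as a block. Without DJ replicate 1, which leaves DJ on slide 2 alone, the difference was -1.63 with an adjusted p of 0.0269 in limma. Its 2 other probes had the same sign with differences of -0.31 and -0.04.

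Cenpm, a centromere protein, was -4.18, -3.73 and -4.51 in Ctrl, -3.56, -3.68 and -3.25 in RS, -3.42, -3.26 and -3.12 in DJ and -4.46, -4.01 and -4.46 in DJ526. RS and DJ were the higher pair of groups, each without overlap with the group it was set against. The difference of effects was -1.69 (standard error 0.310), and -1.78 with the slide as a block. Ren1, which encodes renin, was -3.58, -3.50 and -3.65 in Ctrl, -3.47, -3.39 and -3.05 in RS, -3.58, -2.94 and -3.50 in DJ and -4.79, -4.73 and -4.45 in DJ526. Here the DJ526 arrays were the ones that stood apart, and RS exceeded Ctrl by only 0.27. The difference was -1.59 (standard error 0.273), and -1.61 with the slide as a block.

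Lmnb1, which encodes lamin B1 of the nuclear lamina, had an effect of 0.62 on starch and -0.44 on rice, and its difference was -1.06 and hardly moved with the slide as a block (-1.07). Pax2, a transcription factor of kidney development, went from 0.69 to -1.73 (difference -2.42), and Serpinb1c, a serpin, from 1.15 to -1.05 (difference -2.20). Within slides, that is with the slide as a block, they came to -1.52 and -1.43. Anp32a, an acidic nuclear phosphoprotein, had a difference of -2.05 that fell in size to -0.61 with the slide as a block, and its other probe had 0.02, so that the probes disagree. Among the remaining named genes of this direction, the difference was -1.20 for Olfr1052, -1.11 for Tmem242, -1.08 for the secretin receptor Sctr, -1.06 for Disc1 and -1.01 for the ubiquitin ligase Rnf25. In the same order the slide as a block gave -1.34, -0.35, -1.44, -0.63 and -0.75. The 3 other probes of Sctr lay between -0.74 and 0.26, 2 of them below 0.

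Apoa2, an apolipoprotein of high-density lipoprotein, also turned, at a smaller size. It was 9.23, 9.23 and 9.22 in Ctrl, 9.31, 9.32 and 9.33 in RS, 9.30, 9.49 and 9.41 in DJ and 9.04, 9.01 and 9.15 in DJ526. The values within Ctrl and within RS spread over less than their gap, and DJ526 was lower than all other arrays. The difference was -0.43 (standard error 0.0982, adjusted p = 0.450 in limma), -0.34 with the slide as a block, and -0.02 after quantile normalization. Of 10 hepatocyte markers other than Apoa2, 5 had an unadjusted p under 0.05, all below 0 (Alb -0.32, Serpina1a -0.30, Trf -0.32, Ahsg -0.23 and Cyp2e1 -0.56), and quantile normalization put Alb at 0.04.

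In the opposite direction, Slc49a4, a transporter of the lysosomal membrane, had the largest difference among the genes that turned. Slc49a4 was 0.18, 0.16 and -0.35 in Ctrl, -2.77, -2.41 and -2.02 in RS, 0.38, -2.61 and -2.15 in DJ and 0.51, 0.86 and 0.96 in DJ526. The low values were the 3 RS arrays and DJ replicates 2 and 3, which are the 4 arrays of slide 2 and RS replicate 3 of slide 3, and DJ replicate 1 was as high as Ctrl. The difference of effects was 4.63 (standard error 0.843, 95% interval 2.78 to 6.49), and 2.41 with the slide as a block.

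The olfactory receptor genes Olfr681 and Olfr362 and the gene of the endoplasmic reticulum transcription factor Creb3l1 had the same 5 low arrays. Creb3l1 was -0.65, -0.71 and -1.44 in Ctrl, -2.34, -2.58 and -1.69 in RS, -0.94, -2.47 and -2.26 in DJ and -0.92, -0.62 and -0.51 in DJ526. DJ replicate 1 again lay among the Ctrl values, and the lowest DJ526 value was only just above it. The differences were 3.56 for Olfr681, 2.82 for Olfr362 and 2.47 for Creb3l1, and the slide as a block brought them to 1.50, 1.18 and 1.01.

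Pde5a encodes the cyclic GMP phosphodiesterase that sildenafil inhibits, and it had the largest difference of the genes named, 6.62, against 3.00 with the slide as a block. It was 1.19, 1.24 and 0.06 in Ctrl, -3.74, -3.37 and -2.14 in RS, 0.98, -3.53 and -2.57 in DJ and 0.98, 0.95 and 1.08 in DJ526. DJ replicate 1 overlapped DJ526, so that Pde5a did not turn by the rule, and its low arrays were the same 5. Without DJ replicate 1 the differences of Pde5a (7.97), Slc49a4 (5.56), Olfr681 (4.29), Olfr362 (3.46), Creb3l1 (2.95), Taf3 (1.78) and Inppl1 (1.17) passed an adjusted p of 0.05 in limma (0.00257, 0.000591, 0.00921, 0.00257, 0.0477, 0.0368 and 0.0483). DJ replicate 1 was the only DJ array outside slide 2. Without it DJ lies on slide 2 alone, so that these calls cannot tell DJ and slide apart.

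Ttyh1, a membrane protein of the tweety family, did not share it. It was -2.96, -3.19 and -2.62 in Ctrl, -3.94, -4.10 and -3.58 in RS, -3.91, -3.73 and -4.02 in DJ and -3.03, -3.16 and -3.19 in DJ526. All 3 DJ arrays were as low as RS, DJ replicate 1 of slide 1 included, and RS replicate 3 of slide 3 was below the DJ526 arrays of its slide. The difference was 1.71 (standard error 0.257, adjusted p = 0.273 in limma), 1.44 with the slide as a block and 2.03 in its other probe.

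Inppl1, which encodes the lipid phosphatase SHIP2 of insulin signalling, was 2.11, 2.25 and 1.97 in Ctrl, 1.79, 1.73 and 1.52 in RS, 2.05, 1.48 and 1.61 in DJ and 2.17, 2.44 and 2.25 in DJ526. DJ replicate 1 lay among the Ctrl values and below DJ526, and the low arrays were the same as in Slc49a4. The difference was 1.00 (standard error 0.204), and 0.82 with the slide as a block. Taf3, a subunit of the transcription factor TFIID, had a difference of 1.54 (0.89 with the slide as a block, 0.17 in its other probe), and Unc13b, a vesicle priming protein, one of 1.08 (0.84 with the slide as a block). Myh13, a myosin heavy chain, had 1.64, Gm3414 0.96 and Tmem245 0.81, against 1.36, 0.68 and 0.68 with the slide as a block.

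Cd300e, a receptor of myeloid cells, was 0.02, -0.75 and 0.73 in Ctrl, -0.96, -1.39 and -1.10 in RS, -1.73, -1.35 and -1.09 in DJ and -0.30, -0.96 and -0.56 in DJ526. Its difference was 1.93, against 2.22 with the slide as a block. Summed over 7 macrophage markers, all well above background on every array, the level was 6.57 to 7.39 in Ctrl, 6.26 to 6.83 in RS, 6.25 to 6.83 in DJ and 6.26 to 6.82 in DJ526, and over 5 neutrophil markers, 4 of them well above background on every array, 0.67 to 3.20, 0.03 to 1.31, 0.30 to 2.07 and 0.30 to 0.94. Ctrl replicate 3 was the highest array for both sums and for Cd300e, and without it the difference was 1.56.

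**Figure D2:**
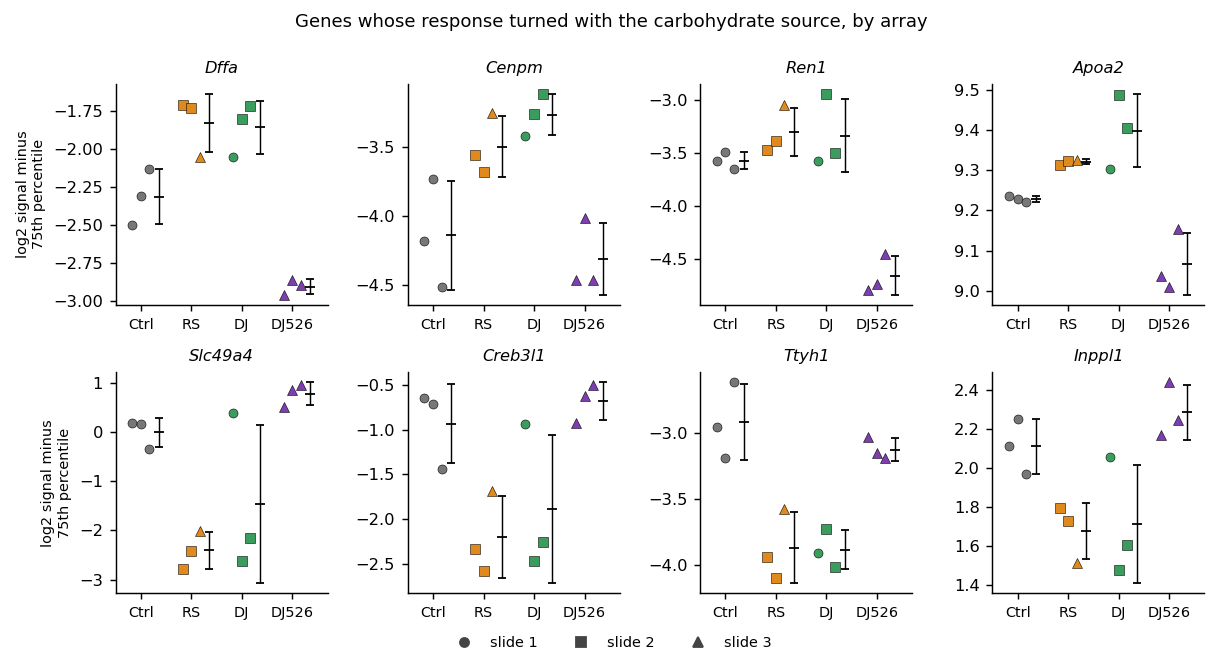
Log2 signal relative to the array's 75th percentile for 8 genes that turned, 1 point per array with its slide as the shape, and the mean and SD of 3 arrays beside them (each panel has its own scale). In Slc49a4 and Creb3l1 the DJ array of slide 1 sits with Ctrl, whereas in Ttyh1 all 3 DJ arrays sit with RS.

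All 183 probes that turned kept their sign with the slide as a block. The rule fixes this, since every value of one group lies beyond every value of the other, so that it is no sign of stability. The size could move. Among the 24 genes of the plot of turned genes, the value with the slide as a block was set over the value without it. This ratio was lowest in Anp32a, Tmem242, Slc49a4, Olfr681, Olfr362 and Creb3l1. Over all members the difference kept its sign with the slide as a block in 63.5% of probes. The position on the array was also recorded. The lower left part of the array (rows from 400, columns up to 42) held 11.6% of the members, 22.7% of the probes higher on starch and lower on rice and 23.3% of the others that turned. Dffa, Cenpm, Ren1 and Sctr lie there, and so does Olfr209, the member called with the slide as a block. Of the 10 members with the smallest p in limma, Olfr638 (the smallest, difference -3.37), Dffa, Olfr1349, Olfr209, Mpp4 and the probes without a symbol lie there. In each of these the DJ526 arrays were the lowest. Ttyh1, Raly and Cdcp2, the others of the 10, lie elsewhere. The cause was not tested. The SD of the difference was 0.444 in the lower left part and 0.343 elsewhere. With signals centred by place on the array, an alternative chosen after seeing the data, 203 probes turned, 94 of them among the 183. The differences of Dffa, Cenpm, Ren1 and Sctr were then -1.41, -1.52, -1.39 and -0.88.

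**Figure D3:**
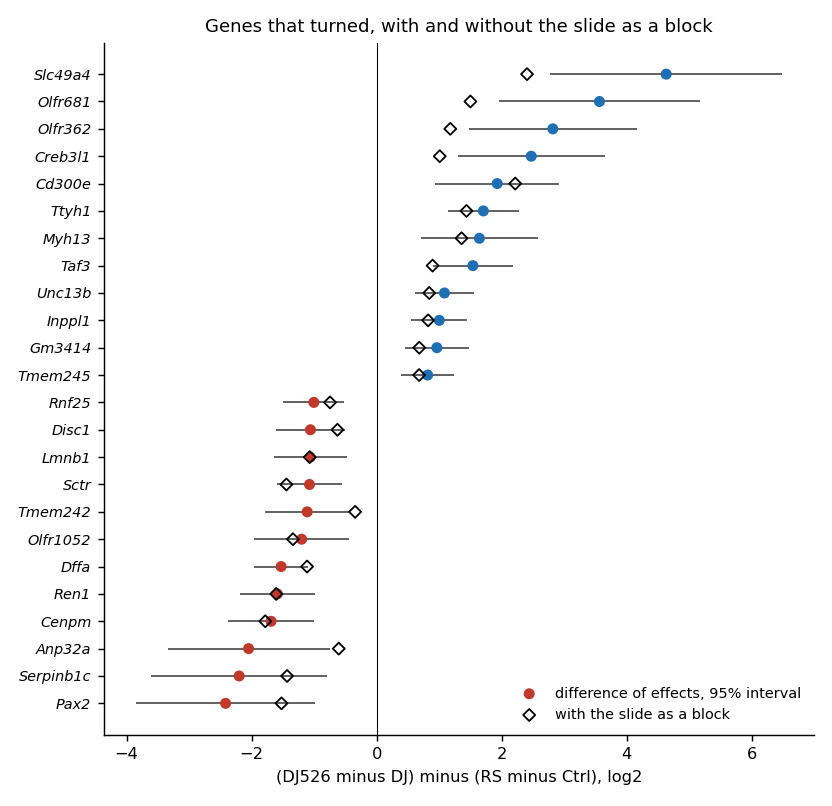
Difference of effects (log2) of the 24 named genes that turned, with its 95% interval from limma, and the value with the slide as a block as an open diamond. The genes were chosen for this pattern, so that intervals off 0 are no evidence of their own. Diamonds lie close to the point for Lmnb1, Ren1 and Cenpm and far from it for Slc49a4, Olfr681 and Anp32a.

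The lists of liver pathways gave the wider setting, each gene read by its brightest probe. Of all 15582 genes, 1056 had an unadjusted p under 0.05 for the difference (6.78%), and 430 of them lay above 0 (2.76%) and 626 below (4.02%), with a median of -0.01. No member of any list passed the adjusted threshold, and the counts that follow are at the unadjusted level.

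In the list of unfolded protein response and heat shock genes, 5 of 24 members lay above 0 and none below, and the 5 were Hspa1a, Hspb1, Hsph1, Dnajb1 and Hspe1, the last of them the mitochondrial partner of Hsp60 (0.37, and 0.42 with the slide as a block). The cytosolic chaperones Hspa8 (0.09) and Hsp90aa1 (0.54) did not reach the unadjusted level. The chaperones of the endoplasmic reticulum were not among the 5 either (Hspa5 -0.25, Hsp90b1 -0.02, Pdia4 -0.42), and the median of the list was -0.005 and changed sign with the scaling. Across the arrays left out in turn the count above 0 was 4 to 6, with 3 members below 0 without Ctrl replicate 1 and none without any other, and 6 lay above with the slide as a block. Hspa1a, the inducible cytosolic Hsp70, was -2.29, -2.25 and -2.05 in Ctrl, -2.30, -2.27 and -2.87 in RS, -2.94, -3.50 and -3.90 in DJ and -2.58, -2.01 and -2.53 in DJ526. DJ lay below every other array, and DJ526 overlapped Ctrl. The difference was 1.36 (standard error 0.359, adjusted p = 0.552 in limma), and 1.24 with the slide as a block. The gene has a near-identical copy, Hspa1b, so that the probe may report on both and its value is uncertain.

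Hspb1, a small heat shock protein, was 4.34, 4.19 and 4.53 in Ctrl, 4.47, 3.67 and 3.32 in RS, 4.03, 3.56 and 3.89 in DJ and 4.12, 4.36 and 4.29 in DJ526. Hsph1, a nucleotide exchange factor of Hsp70, was 2.82, 2.67 and 2.66 in Ctrl, 2.57, 2.39 and 2.10 in RS, 2.19, 2.40 and 1.79 in DJ and 2.37, 2.74 and 2.70 in DJ526. In both, Ctrl and DJ526 were the high groups, RS and DJ had lower means, and RS replicate 3 was the lowest RS array. Their differences were 0.97 and 0.84 (standard errors 0.337 and 0.231), that of the Hsp40 gene Dnajb1 was 0.57 (standard error 0.175), and with the slide as a block they were 1.26, 1.03 and 0.65. RS replicate 3, the only RS array that enters the value with the slide as a block, was the lowest RS array in all 4 genes, Hspa1a included. Without it the differences were therefore smaller in all 4 genes, among them Hspb1 (0.72) and Dnajb1 (0.43).

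The promoters of these genes are shown because the members at the unadjusted level all lay above 0 and heat shock genes share a known response element. The genes were picked by that level, so that the windows are no evidence of a shared response. The sequences are from RefSeq (GRCm38.p6), 150 bases up to the base before the start, 5′ to 3′ on the strand of the gene, with matches to the heat shock element in capitals.
Hspa1a, chr17:34972157-34972306, minus strand: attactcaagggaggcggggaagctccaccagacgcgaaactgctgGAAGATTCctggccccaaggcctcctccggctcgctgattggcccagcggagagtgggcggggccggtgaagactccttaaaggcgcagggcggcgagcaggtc
Hspb1, chr5:135887769-135887918, plus strand: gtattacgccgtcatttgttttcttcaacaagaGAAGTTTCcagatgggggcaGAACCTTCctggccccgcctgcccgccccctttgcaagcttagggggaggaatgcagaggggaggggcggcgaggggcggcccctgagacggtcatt
Hsph1, chr5:149636337-149636486, minus strand: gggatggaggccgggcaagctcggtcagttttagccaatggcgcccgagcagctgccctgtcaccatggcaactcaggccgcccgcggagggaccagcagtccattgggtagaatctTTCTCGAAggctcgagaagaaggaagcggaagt
The element was searched as GAANNTTC or TTCNNGAA, which read the same on both strands. Of 32851 promoters 7.73% held a match in the same 150 bases. Hspa1a had 1 match, beginning 104 bases before the start, Hspb1 had 2, the first at 117 bases before it, and Hsph1 had 1 in the window of its first listed start. No match was found in the windows of Dnajb1, which says only that these letters are not there.

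Clock genes had 3 of 17 members above 0 and none below, with a median of 0.23 (0.10 with the slide as a block). With the slide as a block none of the 17 reached the unadjusted level, nor did any without the 3 arrays with adipocyte markers described below, where the median was 0.04. Per2, a repressor of the circadian clock, was -0.56, -0.64 and -0.41 in Ctrl, -0.69, -0.53 and -0.37 in RS, -1.41, -1.60 and -1.67 in DJ and -1.19, -0.49 and -0.63 in DJ526. DJ lay below all other arrays, and Ctrl and RS overlapped. Its difference was 0.79 (standard error 0.237, adjusted p = 0.632 in limma), and 0.48 with the slide as a block. Usp2, a deubiquitinase with a daily rhythm, had 1.16 (0.50 with the slide as a block), and Rora, a nuclear receptor that activates clock genes, 0.69 (0.19). Nampt, the rate-limiting enzyme of the NAD salvage pathway, was 2.11, 1.83 and 2.10 in Ctrl, 2.01, 1.87 and 1.99 in RS, 1.59, 1.06 and 1.26 in DJ and 1.65, 2.14 and 1.97 in DJ526. DJ was again the low group, without overlap. The difference was 0.67 (standard error 0.212, adjusted p = 0.672 in limma), and 0.36 with the slide as a block. The list of sirtuins, NAD and AMPK had 2 of 30 members above 0, which were Nampt and Pde5a and thus no sirtuin, and none below.

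Several enzymes that conjugate or oxidise foreign compounds stood below 0 at the unadjusted level. Of 17 sulfotransferase genes and their sulfate donors 4 lay below 0 and none above, and the median was -0.61 (-0.57 with the slide as a block). The 4 were Sult1e1, the estrogen sulfotransferase (-1.79), Sult2a8 (-0.75), Papss2, which makes the sulfate donor (-0.53), and Sult1b1 (-0.48), and the slide as a block gave -2.45, -0.70, -0.55 and -0.77. With the arrays left out in turn the count was 2 to 9, lowest without RS replicate 2 and highest without DJ replicate 3 (8 without DJ526 replicate 2), and it was 2 with the slide as a block. The largest differences, in the hydroxysteroid sulfotransferases Sult2a4 (-3.97), Sult2a1 (-3.40), Sult2a3 (-3.30) and Sult2a6 (-2.52), did not reach the unadjusted level. Sult2a1 was 3.26, 2.01 and 1.89 in Ctrl, 6.37, 5.38 and 5.20 in RS, 6.73, 6.41 and 1.20 in DJ and 4.08, 6.15 and 3.70 in DJ526. RS lay above Ctrl without overlap, DJ526 fell inside the range of DJ, and DJ replicate 3 stood far below the other DJ arrays. The difference of Sult2a1 was -5.19 without DJ replicate 3 and -2.43 without DJ replicate 1. Sequences of these paralogs are alike, so that probes may share signal between them. The UDP-glucuronosyltransferases had 0 of 13 members at the unadjusted level, and all lay between -0.28 and 0.39.

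Cytochrome P450 genes of families 1 to 3 had 5 of 32 members below 0 and none above, with a median of -0.15 (-0.20 with the slide as a block). The count below 0 was 2 to 9 with an array left out, highest without Ctrl replicate 1 and lowest without Ctrl replicate 3, RS replicate 1, DJ replicate 2 or DJ526 replicate 2. It was 3 with the slide as a block, and 1 lay above 0 without Ctrl replicate 2, DJ526 replicate 1 or DJ526 replicate 2. Cyp3a16, of the subfamily that oxidises steroids and drugs, was 4.14, 4.96 and 4.07 in Ctrl, 5.48, 5.13 and 4.22 in RS, 4.23, 5.55 and 4.99 in DJ and 3.95, 3.20 and 2.98 in DJ526. DJ526 lay below all other arrays. The difference was -2.10 (standard error 0.581, adjusted p = 0.569 in limma), but -0.68 with the slide as a block. Cyp3a11, its major relative, had -0.82 and -0.03. Cyp1a1, a target of the aryl hydrocarbon receptor, had -1.25 and, with the slide as a block, -2.12, with effects of 1.19 on starch and -0.06 on rice. The others were Cyp2g1 (-1.40, and -1.04 with the slide as a block) and Cyp2e1 (-0.56 and -0.35).

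Interferon-stimulated genes showed a direction that changed with the slide as a block. They had 4 of 23 members below 0 and none above, and 19 of 23 values below 0 with a median of -0.36, which held between -0.52 and -0.18 with each array left out. The count below 0 at the unadjusted level was then 1 (without RS replicate 1 or DJ replicate 3) to 7 (without RS replicate 3 or DJ replicate 1), and it was 0 without the 3 arrays with adipocyte markers. With the slide as a block the median was 0.27, with 17 of 23 above 0. Isg15, a ubiquitin-like protein, was 1.62, 1.66 and 1.99 in Ctrl, 2.75, 2.04 and 1.98 in RS, 1.74, 2.47 and 2.78 in DJ and 1.55, 1.89 and 2.00 in DJ526. Its 4 highest arrays were the 4 of slide 2. Its difference was -1.02 (standard error 0.379, adjusted p = 0.728 in limma), against -0.15 with the slide as a block, and Ifi44, which had the largest difference of the list, went from -1.12 to -0.08. Zbp1, a sensor of nucleic acids, had -0.86, and the guanylate-binding protein Gbp3 -0.66, which became -0.13 and, with the sign turned, 0.04 with the slide as a block. The windows of 3 members are shown because most values of the list lay below 0 without the block and such genes share a known response element. They are the windows, among those of 4 members searched, in which a match was found, and it is in capitals.
Isg15, chr4:156200819-156200968, minus strand: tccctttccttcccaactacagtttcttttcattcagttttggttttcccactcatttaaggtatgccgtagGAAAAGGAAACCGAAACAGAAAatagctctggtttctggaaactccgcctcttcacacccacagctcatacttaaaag
Ifit1, chr19:34640739-34640888, plus strand: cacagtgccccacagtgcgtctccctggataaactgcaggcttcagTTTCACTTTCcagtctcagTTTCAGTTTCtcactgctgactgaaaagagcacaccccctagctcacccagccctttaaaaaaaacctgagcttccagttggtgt
Gbp3, chr3:142559894-142560043, plus strand: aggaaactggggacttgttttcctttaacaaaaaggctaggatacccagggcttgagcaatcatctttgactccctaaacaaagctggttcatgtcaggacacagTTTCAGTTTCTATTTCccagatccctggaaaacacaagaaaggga
The interferon-stimulated response element was searched as TTTC, any 2 bases and TTTC, or on the other strand GAAA, any 2 bases and GAAA, overlaps allowed, and 1.59% of 32851 promoters held it. Isg15 had 3 overlapping matches, Ifit1 2 and Gbp3 2 that overlap at its first listed start. No match was found at the second start of Gbp3 or in the window of Ifi44, which says only that these letters are not there. Ifit1 had a difference of -0.74, and 0.27 with the slide as a block.

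**Figure D4:**
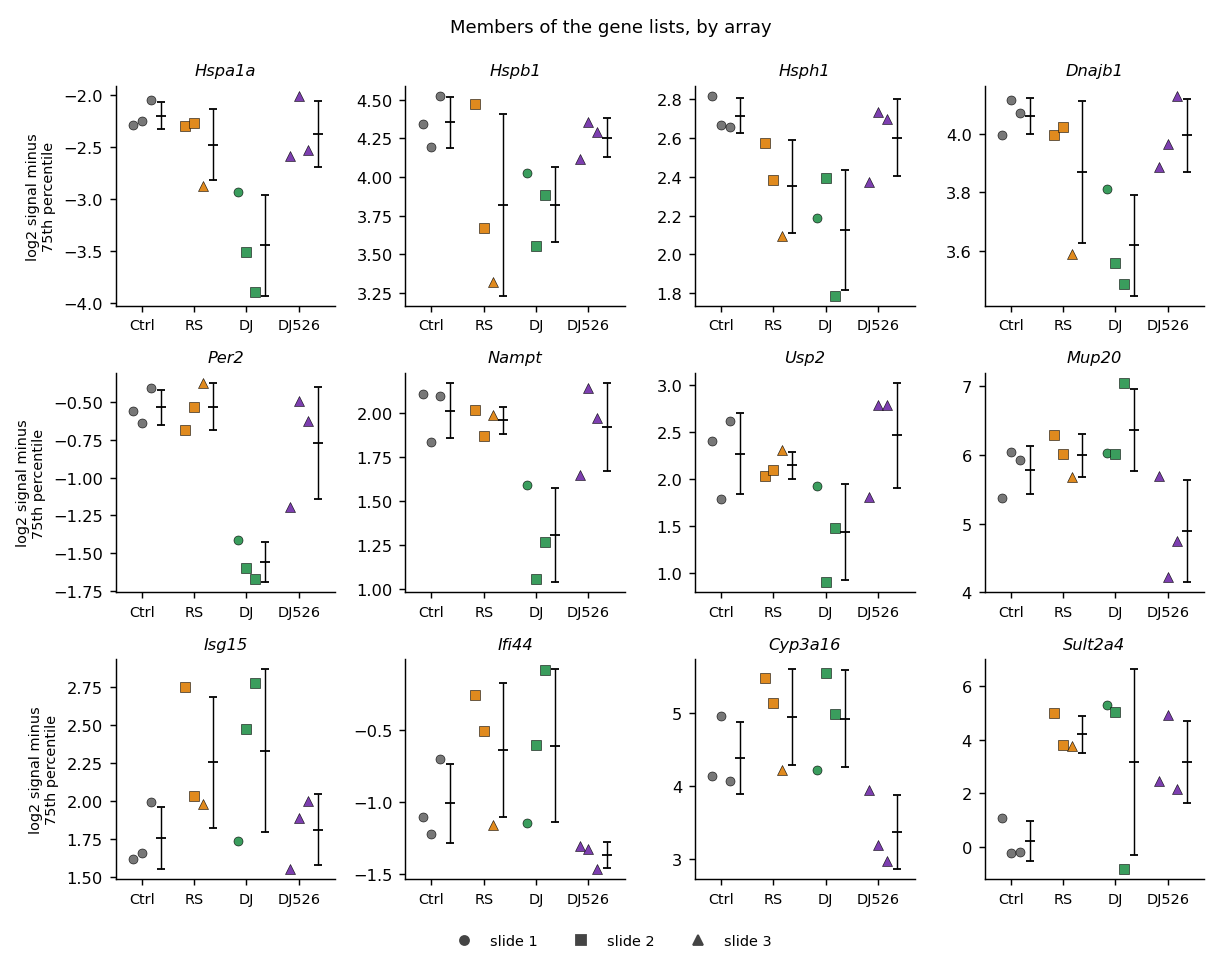
Log2 signal relative to the array's 75th percentile for 12 members of the lists, 1 point per array with its slide as the shape, and the mean and SD of 3 arrays beside them (each panel has its own scale). DJ is the low group in Hspa1a, Per2 and Nampt, DJ526 the low group in Cyp3a16, and the 4 arrays of slide 2 are the highest in Isg15.

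Of the genes that the liver uses for growth hormone, bile acid, lipid and acute phase responses, few reached the unadjusted level. In the growth hormone and STAT5 list, Mup20, a major urinary protein, was 5.37, 6.03 and 5.92 in Ctrl, 6.28, 6.01 and 5.67 in RS, 6.02, 6.00 and 7.04 in DJ and 5.70, 4.23 and 4.74 in DJ526. DJ526 lay below DJ, and RS overlapped Ctrl. Its difference was -1.68 (standard error 0.528, adjusted p = 0.672 in limma), -1.02 with the slide as a block and -0.21 in its other probe. Cyp3a16, a member of this list too, made up the pair below 0 with it, and Igfbp2 was the member above 0 (0.62, and 0.96 with the slide as a block), among 23. In the acute phase list 2 of 25 lay below 0, Saa4 (-1.03) and haptoglobin, Hp (-0.39), which had -0.68 and -0.25 with the slide as a block.

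Bile acid genes had 1 of 20 above 0, Slco1a4 (0.45), and 1 below, Hsd3b7 (-0.73), and the slide as a block gave 0.17 and -0.41. Cyp8b1, the sterol 12-alpha-hydroxylase, had -2.03, but DJ526 replicate 3 set much of it, and the value was -1.05 without that array. In the list of PPAR-alpha and fatty acid oxidation 1 of 26 lay below 0, the fatty acid transporter Cd36 (-1.41, and -0.49 with the slide as a block). The levels of Cd36 were 1.58, 0.73 and 0.47 in Ctrl, 2.17, 0.68 and 0.69 in RS, 1.25, 1.89 and 1.93 in DJ and 0.66, 0.95 and -0.02 in DJ526. Ctrl replicate 1, RS replicate 1 and DJ replicate 2 had high signals of the adipocyte genes Adipoq (-2.88, -3.03 and -3.49, against -6.90 to -5.64 on the other 9 arrays) and Cfd. The summed level of 6 adipocyte markers, 3 of them well above background on every array, was 6.36 to 7.37 in Ctrl, 5.82 to 7.82 in RS, 6.84 to 7.11 in DJ and 6.13 to 6.63 in DJ526. This sum was almost wholly Car3 (7.36 of 7.37 in Ctrl replicate 1), since the other markers lay below 0 on every array. It is thus no measure of Adipoq or Cfd, and it was higher in DJ replicate 1 (7.11) than in DJ replicate 2 (6.91). Without Ctrl replicate 1, RS replicate 1 and DJ replicate 2 the difference of Cd36 was -1.15.

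Genes of glycolysis and gluconeogenesis, of fatty acid and triglyceride synthesis and of cholesterol synthesis had 0 members at the unadjusted level (of 20, 21 and 22). The medians were 0.07, 0.32 and 0.01, and 0.23, 0.10 and -0.55 with the slide as a block. With an array left out the median ran from 0.03 (without RS replicate 1) to 0.75 (without Ctrl replicate 1) in fatty acid and triglyceride synthesis and from -0.25 (without Ctrl replicate 2) to 0.36 (without Ctrl replicate 1) in cholesterol synthesis. Without the 3 arrays with adipocyte markers 3 of the 21 genes of fatty acid and triglyceride synthesis lay above 0 at the unadjusted level, with a median of 0.58. Scd1, the stearoyl-CoA desaturase, was 5.85, 7.90 and 7.81 in Ctrl and 5.03, 7.33 and 7.63 in RS, so that Ctrl replicate 1 and RS replicate 1, which are 2 of those 3 arrays, stood low. Its difference was 1.04 with a standard error of 0.957, and -0.05 with the slide as a block. In the list of lipid droplets and apolipoproteins Mttp, which loads lipid onto apolipoprotein B, lay above 0 (0.41, and 0.48 with the slide as a block), and Apoa2 and Cd36 below, of 27. The list of Nrf2 and glutathione genes had Gstt2 above 0 (0.47) and the exporter Abcc4 below (-0.82), of 26, and the slide as a block gave 0.71 and -0.76. Of 22 zonation genes Rhbg (-0.90, but 0.14 with the slide as a block) and Cyp2e1 lay below 0, and of 19 cell cycle genes Cdkn2c (-0.45, and -0.53 with the slide as a block). The respiratory chain had 1 of 30 below 0, Sdhc (-0.30, and -0.33 with the slide as a block), and the cytosolic ribosomal proteins had 0 of 30, all between -0.19 and 0.22.

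**Figure D5:**
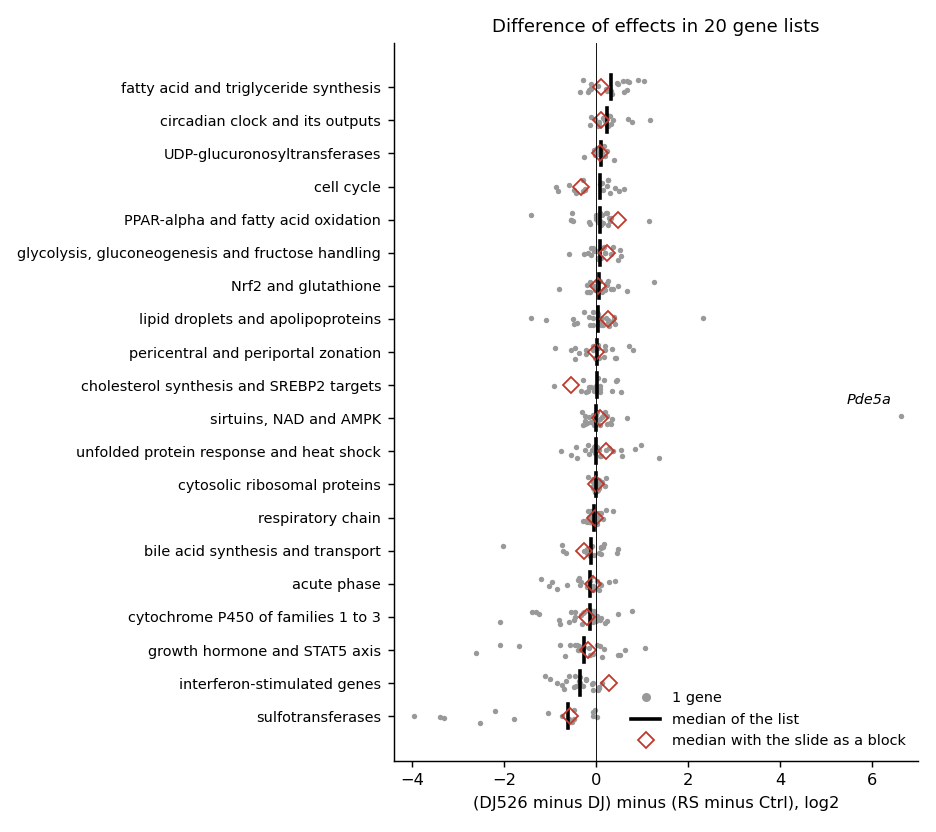
Difference of effects (log2) of the members of 20 gene lists, 1 grey point per gene, with the median of each list as a bar and the median with the slide as a block as an open diamond. The sulfotransferases have the lowest median (-0.61), and in the interferon-stimulated genes bar (-0.36) and diamond (0.27) lie on opposite sides of 0.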

How the data were processed

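The 12 livers gave 12 one-colour arrays, 1 for each mouse. Spot intensity values, background-subtracted by Feature Extraction 11.5.1.1, were deposited, together with a normalized table, in which 99.83% to 99.89% of the probes per array equal this signal times 1 factor (within a relative 0.0001). The 75th percentile of the signal was 953 to 1167 per array, and 73.0% to 80.8% of the spots were well above background. Outlier spots (93 to 197 per array) and control spots were left out, repeated spots were averaged, and each value was divided by the 75th percentile and put on the log2 scale, which no deposited file uses. Accessions in the files gave 27508 of 39429 probes a symbol through RefSeq. A gene was read by its brightest probe.

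limma (version 3.58.1, R 4.3.3) was fitted with 4 group means, a variance trend and no block, with Benjamini-Hochberg adjustment over all probes (threshold 0.05). It was tested on simulated data with 200 changed probes. The genes named were up to 12 in each direction of turning, those called with the slide as a block, up to 4 of each of 20 lists, and Sult2a1, Sult2a4, Sult2a6 and Pde5a. Further members at an unadjusted p under 0.05 were named after their values were seen. Olfr638, Olfr1349, Mpp4, Raly and Cdcp2 were also named then, for their small p. The members and lists were chosen with earlier results of these data known. Replicates are separate mice, and their number limits the precision. Tables and figures were made in Python 3.11.15 (numpy 2.4.6, pandas 2.3.3, matplotlib 3.10.9). Of the genes so named 3 are not reported here, and measurements other than the arrays were not used.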

Additional observations from a re-analysis of the deposited data

How the results depend on the processing

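Counts of probes past the threshold rest on few mice. For the difference of effects the count of 0 became 17 with the slide as a block and 0 to 19 with an array left out, and it was 0 under every other alternative run, the replicate block included (2297 probes at an unadjusted p under 0.05). RS minus Ctrl had 0, 1 with the slide as a block and 0 to 4 with an array left out (4 without RS replicate 1). DJ526 minus DJ had 4, and 1 with normexp, 10 with the array median, 27 with quantile normalization, 8 and 14 with probes well above background on all arrays or in a group alone, 11 without the variance trend, 2 with the slide as a random block, 0 with the replicate block, 1 with the methods' t-test and 0 without the 3 arrays with adipocyte markers. With an array left out it was 0 to 107, highest without RS replicate 3. The 183 probes that turned became 119 with the array median, 842 with the slide as a block (66 of them shared), 360 with the replicate block, 265 to 665 with an array left out and 723 without the 3 adipocyte arrays. With fewer arrays in a group, groups overlap less by construction, and the other causes were not tested. Normexp moved the median difference over all probes from 0.01 to -0.09. Correlations between same-numbered arrays ran from -0.35 to 0.41, and 6 of 12 arrays were closest to their own number. For replicate 1 they were -0.02 to 0.41, and for replicates 2 and 3 they lay on both sides of 0. The methods use an unpaired test, and the replicate numbers were not taken as pairs.

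Of the 114 genes reported by the naming rule, none changed sign under another scaling or background correction. With the slide as a block 19 did, to -0.0527 in Scd1, -0.30 in Pltp, -0.37 in Lss, 0.90 in Vnn1, 0.75 in Cyp4a31, 0.62 in Nr0b2, 0.45 in Lcn2, 0.29 in Saa3, 0.27 in Ifit1, 0.17 in Trib3, 0.14 in Rhbg, -0.14 in Tbx3, 0.15 in Gadd45g, -0.0179 in Rpl18, -0.0367 in Rpl5, -0.000247 in Sdha, 0.25 in Apoa4, 1.61 in Cidec and 0.0366 in Gbp3, and the random block put Cidec at 0.23. Without the adipocyte arrays, an alternative chosen after seeing the data, Cdkn1a was at 0.47. With an array left out Cyp4a31 ran from -1.32 to 0.0621, Slco1a1 from -1.20 to 0.10, Gadd45g from -1.53 to 0.22 and Cdkn1a from -1.68 to 0.36. The cause of these changes was not tested.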
